A study of Arabidopsis thaliana with 6 samples.

Results

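The germin-like protein genes GER1 (AT1G72610), GER2 (AT5G39190) and GER3 (AT5G20630) are 3 of the 33331 genes in a table of RNA immunoprecipitation sequencing (RIP-seq) from Arabidopsis thaliana, and were taken from the table by gene ID, with earlier results of these data known. All 3 were listed above 0 in all 6 libraries. GER1 was the most abundant member at both time points. GER3 was 3.98-fold higher at LL36 than at LL24, and GER1 was 1.62-fold higher, with a larger spread and a call that several alternatives did not keep. GER2 was close to 0 throughout.

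The RIP-seq compared RNAs that came down with AtGRP7, a glycine-rich RNA-binding protein under clock control, at 2 times of the subjective day. Both groups consisted of aerial tissue of AtGRP7::AtGRP7-GFP in grp7-1, that is the fusion to green fluorescent protein driven by the AtGRP7 promoter in plants whose own AtGRP7 gene carries a T-DNA insertion. Plants were 16 days old, had been kept in cycles of 12 h light and 12 h dark, and were then moved to constant light (LL). LL36 libraries came from tissue fixed after 36 h, at subjective dusk, and LL24 libraries from tissue fixed after 24 h, at subjective dawn, with 3 biological replicates each and several plants bulked per replicate. In both groups fixation was with 1% formaldehyde for 15 min, stopped with 125 mM glycine, and the protein was captured on GFP-Trap beads. The study itself called RIP-seq targets by their enrichment over poly(A) RNA of wild-type plants, a comparison not used here. No input RNA, mock precipitate or poly(A) RNA was analysed here. From these values alone, the amount of a transcript and its recovery with the protein cannot be told apart. In such tissue fewer cells that express a gene and less of its RNA per cell cannot be told apart either.

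Germins and germin-like proteins are secreted glycoproteins of the plant cell wall and belong to the cupin superfamily, named after a small beta-barrel fold. The founding germin of cereals is a manganese enzyme, an oxalate oxidase that releases hydrogen peroxide and also has superoxide dismutase activity, and its metal ion is held by histidine and glutamate residues in conserved motifs. Germin-like proteins of Arabidopsis are linked to the extracellular matrix and to defence, and the GER3 transcript has long been known to oscillate under the circadian clock.

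The coding regions show that the members are related but well separated in sequence. The first cupin motif is shown because it carries the metal-binding histidine and glutamate codons, which stand in capitals. All sequences were read 5′ to 3′ on the coding strand from the RefSeq assembly TAIR10.1, where GER1 is at chr1:27339587-27339649, GER2 at chr5:15693068-15693130 and GER3 at chr5:6975600-6975662, each on the minus strand.
GER1: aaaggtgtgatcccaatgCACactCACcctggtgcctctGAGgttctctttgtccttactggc
GER2: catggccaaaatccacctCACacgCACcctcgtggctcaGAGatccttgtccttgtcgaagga
GER3: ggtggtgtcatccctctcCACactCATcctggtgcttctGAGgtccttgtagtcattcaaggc
In each gene the capitals spell a histidine, a histidine and a glutamate codon. The third metal-binding histidine codon was found in the second cupin motif of each gene, which starts at codon 135 of 208 in GER1, codon 148 of 222 in GER2 and codon 138 of 211 in GER3. Over the aligned coding sequence 66.3% of bases were identical between GER1 and GER3, 58.5% between GER1 and GER2 and 60.7% between GER2 and GER3. No stretch of 100 nt of the GER3 transcript was found in another annotated transcript on either strand.

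GER1 and GER2 were not separate from other genes in this way. GER1 is a single-exon gene at chr1:27339114-27340044 on the minus strand, and AT1G72600, annotated at chr1:27338034-27340328 on the plus strand, runs across it. Of the 931 nt of the GER1 transcript, 858 nt (92.2%) are also exonic in 1 of the 2 AT1G72600 transcripts. The library kit named in the labels was taken as one that does not mark strand, and no source used here says how strand was treated in the quantification. Without strand, reads from these 858 nt cannot be told apart between both genes. GER2 is a gene of 2 exons at chr5:15692542-15693735, in a cluster of 8 germin-like genes, and 60.1% of its 100-nt stretches also occur in another transcript, nearly all of them (59.5%) in AT5G39160. With stretches of 50 nt, 81.1% were shared with another transcript for GER2, 91.7% for GER1 and 0% for GER3. The coding sequences of GER2 and AT5G39160 had 668 of 669 bases in common. GER3 is a single-exon gene at chr5:6975029-6976036.

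Values were in TPM, transcripts per 1000000 transcripts, which corrects for transcript length, so levels of different genes can be set side by side. The listed TPM, from which rRNA and organelle genes had been left out, summed to only 9.59% to 16.6% of 1000000 per library. A large part of that was held by AT2G01021, which averaged 89640 scaled TPM at LL36 and 87262 at LL24. Libraries were therefore scaled to each other by a trimmed mean over the 789 genes with a mean of at least 5 TPM. The scaling factors were 1.04, 1.15 and 0.615 for LL36 replicates 1 to 3 and 1.17, 0.927 and 1.26 for LL24 replicates 1 to 3, so that LL36 replicate 3 stood apart. The fusion carries the coding part, intron and untranslated regions of AtGRP7, so values listed for AtGRP7 include the fusion transcript. They were 207, 256 and 229 scaled TPM at LL36 and 2.96, 2.77 and 3.53 scaled TPM at LL24. AtGRP7 had the first rank of all tested genes by increase. Summed deposited TPM of 5 leaf markers was 2189.9 to 4180.6 at LL36 and 4362 to 5167 at LL24. That of 6 root markers was 0.649 to 1.27 at LL36 and 1.24 to 2.27 at LL24, with COBL9 and EXPA7 at 0 in every library, and 3 flower markers together stayed at or below 0.0266 TPM, with AP3 at 0. The leaf marker sum was lower at LL36 on the deposited scale. A smaller share of leaf tissue and less RNA of the markers cannot be told apart by this sum. The part of the leaf marker sum in the results was not tested.

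**Figure D1:**
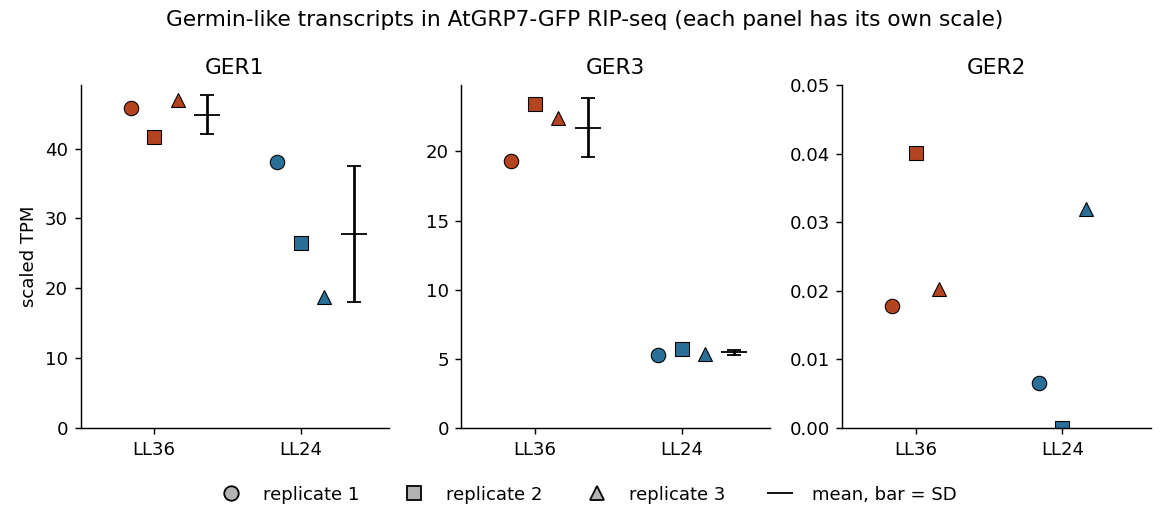
Scaled TPM of GER1, GER3 and GER2 in each library, LL36 left of LL24 in every panel, with the mean and SD of 3 libraries for GER1 and GER3. GER3 lies between 19.3 and 23.5 at LL36 and between 5.30 and 5.70 at LL24, GER1 spreads from 18.8 to 38.0 at LL24, and GER2 does not exceed 0.0401 in any library.

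GER3 was the member with the clearest difference between the time points. Its deposited values were 20.02, 26.9 and 13.8 TPM at LL36, against 6.19, 5.29 and 6.81 TPM at LL24. The lowest LL36 library was thus above the highest LL24 library even before scaling. After scaling the values were 19.3, 23.5 and 22.4 TPM at LL36 and 5.30, 5.70 and 5.39 TPM at LL24, with means of 21.7 ± 2.15 and 5.46 ± 0.213 (SD, n = 3 each). Among the genes above 0 in each library GER3 ranked 218th, 168th and 185th from the top at LL36 and 744th, 671st and 729th at LL24. In limma, fitted over all 789 tested genes on log2(scaled TPM + 1), the difference was 1.81 ± 0.09 (SE) with an adjusted p of 3.81e-06. That was the 14th largest increase of all tested genes. The median log2 difference of the tested genes was 0.02, and that of the genes called higher was 0.45. GER3 was called higher in all 16 alternatives run, with log2 differences of 1.35 to 2.08.

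GER1 had the highest level of the members and a less certain difference. Its deposited values were 47.5, 47.8 and 28.9 TPM at LL36, against 44.4, 24.5 and 23.7 TPM at LL24. On this scale the groups overlapped, since LL36 replicate 3 was below LL24 replicate 1. Scaling, which raised LL36 replicate 3 the most, gave 45.9, 41.7 and 47.0 TPM at LL36 and 38.0, 26.4 and 18.8 TPM at LL24, and the groups no longer overlapped. The means were 44.8 ± 2.79 at LL36 and 27.8 ± 9.69 at LL24 (SD, n = 3 each), and the LL24 libraries were the more spread out. Fitted with limma, the difference was 0.73 ± 0.22 (SE) on the log2 scale with an adjusted p of 0.0328, the 45th largest increase. Only 57 of the 789 tested genes had a larger SE than GER1, and the median SE was 0.10. The call was lost with TPM as deposited (0.43, adjusted p = 0.499) and without a limit on low genes (0.85, adjusted p = 0.0947). It was also lost when LL36 replicate 1 (0.72, adjusted p = 0.0692), LL36 replicate 2 (0.79, adjusted p = 0.0579), LL36 replicate 3 (0.69, adjusted p = 0.0737), LL24 replicate 2 (0.71, adjusted p = 0.0941) or LL24 replicate 3 (0.47, adjusted p = 0.053) was left out, and was kept only without LL24 replicate 1 (0.96, adjusted p = 0.00434). The sign of the difference was positive in each of these fits.

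Of the 789 tested genes, 157 (19.9%) were called higher at LL36, and 347 (44.0%) were called in either direction. Scaled values did not overlap between the time points for 57.3% of the tested genes. A call, or a lack of overlap, was therefore frequent in these libraries. The deposited means of GER3 (20.2 TPM at LL36 and 6.10 TPM at LL24) and of GER1 (41.4 TPM at LL36 and 30.9 TPM at LL24) passed the limit at each time point.

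**Figure D2:**
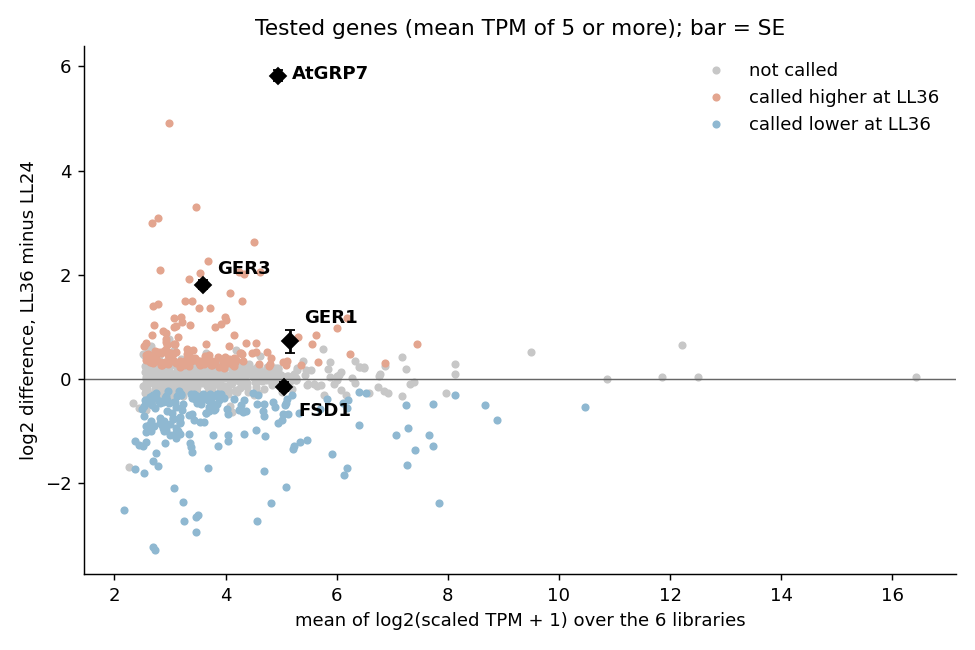
Log2 difference, LL36 minus LL24, against the mean of log2(scaled TPM + 1) for the 789 tested genes. Diamonds mark AtGRP7 (5.82), GER3 (1.81), GER1 (0.73) and the superoxide dismutase gene FSD1 (-0.15), with bars for the SE, and colours give the genes called higher, called lower or not called by limma.

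The spread of GER1 at LL24 went with the level of the gene on the other strand. AT1G72600 had 0.271, 7.99 and 0.189 TPM at LL36 and 0.164, 7.14 and 13.8 TPM at LL24, so it was between 0.164 and 0.271 TPM in 3 libraries and between 7.14 and 13.8 TPM in the other 3. After scaling, the 3 libraries with the most AT1G72600 were the ones with the lowest GER1 of their time point. As deposited this held at LL24, whereas LL36 replicate 2 had the highest GER1 of LL36 (47.8 TPM). In LL36 replicate 2, the LL36 library with the most AT1G72600, GER1 was at 41.7 scaled TPM, the lowest of that group. LL24 replicates 2 and 3 had 7.70 and 10.9 scaled TPM of AT1G72600 and the lowest GER1 of all libraries, whereas LL24 replicate 1 had 0.141 scaled TPM of AT1G72600 and the highest GER1 of its group. With a mean of 4.92 TPM AT1G72600 was just under the limit of 5 TPM for the test. Without that limit its difference was -1.04 ± 1.07 (SE) on the log2 scale with an adjusted p of 0.617 by limma.

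Both genes were then added together in units of GER1 transcript length, with the TPM of AT1G72600 multiplied by the ratio of its 1755 nt transcript to the 931 nt of GER1. This alternative was chosen after the values were seen. It takes all TPM of AT1G72600 as its 1755 nt transcript, although a transcript of 830 nt is also annotated. How its TPM was divided between these transcripts was not tested. The sum was 46.4, 54.8 and 47.5 scaled TPM at LL36, against 38.3, 40.9 and 39.4 scaled TPM at LL24. The LL24 libraries, which ranged from 18.8 to 38.0 for GER1 alone, lay within 38.3 to 40.9 for the sum. The LL36 libraries went the other way, from a range of 41.7 to 47.0 for GER1 alone to 46.4 to 54.8 for the sum. All LL36 libraries stayed above all LL24 libraries, but the difference was smaller, 0.32 ± 0.09 (SE) on the log2 scale with an adjusted p of 0.0248 in the same limma fit. Added as plain TPM without the length, the difference was 0.47 ± 0.10 (SE) with an adjusted p of 0.00885. With TPM as deposited neither sum was called (0.02, adjusted p = 0.987 by length, and 0.18, adjusted p = 0.849 as TPM). Leaving out single libraries gave 0.26 to 0.39 for the sum by length, with adjusted p of 0.0309 without LL36 replicate 1 and 0.047 without LL36 replicate 3, and of 0.0549 without LL36 replicate 2, 0.085 without LL24 replicate 1, 0.0504 without LL24 replicate 2 and 0.0546 without LL24 replicate 3. The sum as TPM was called without each library in turn, at 0.37 to 0.54 with adjusted p of 0.00685 to 0.0305. How much of the signal came from either strand was not tested.

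**Figure D3:**
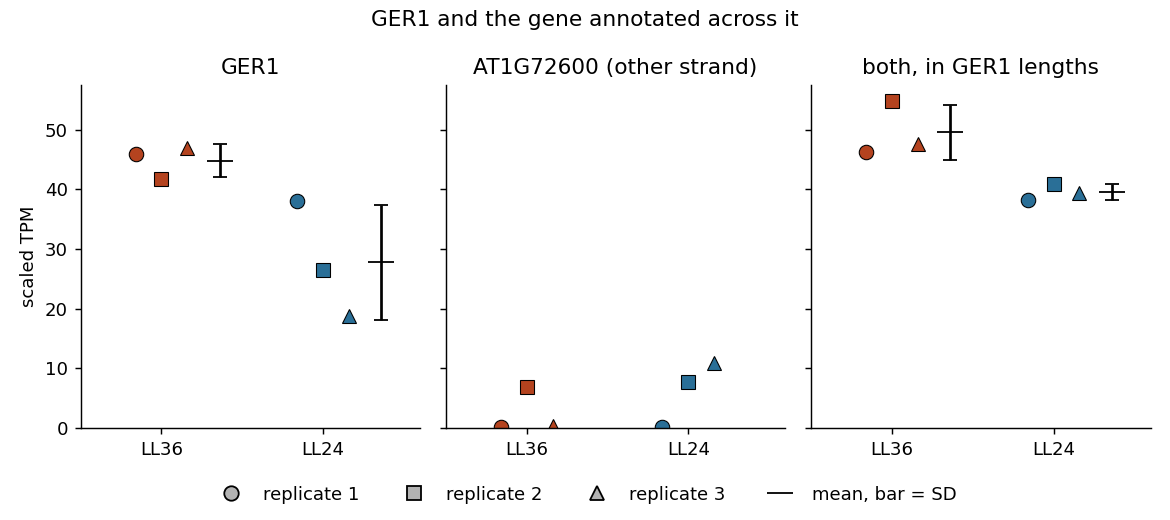
Scaled TPM of GER1, of AT1G72600 and of both together in units of GER1 transcript length, by library, LL36 left of LL24, with the mean and SD of 3 libraries for GER1 and for the sum. GER1 alone ranges from 18.8 to 38.0 at LL24, and the sum from 38.3 to 40.9. At LL36 GER1 alone ranges from 41.7 to 47.0, and the sum from 46.4 to 54.8.

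**Figure D4:**
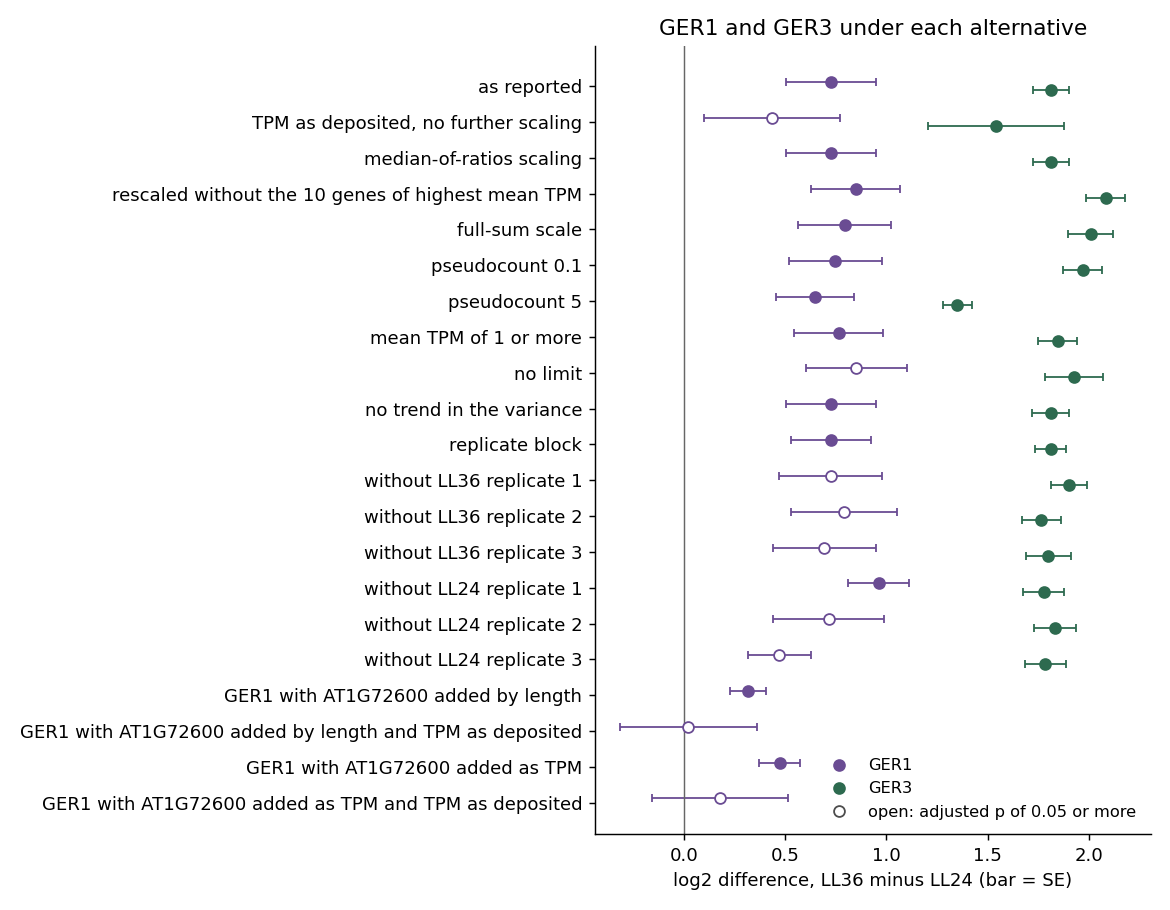
Log2 difference, LL36 minus LL24, of GER1 and GER3 under each alternative, with bars for the SE and open symbols where the adjusted p of limma was 0.05 or more. GER3 stays between 1.35 and 2.08 and filled throughout. GER1 alone lies between 0.43 and 0.96, and GER1 with AT1G72600 added between 0.02 and 0.47. Of these 20 alternatives, with and without AT1G72600, 9 have open symbols.

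GER2 was near the bottom of the range. It had 0.0184, 0.0461 and 0.0125 TPM at LL36, against 0.00768, 7.24e-05 and 0.0404 TPM at LL24. The groups overlapped, with the highest LL24 library above 2 of the LL36 libraries. From the top GER2 ranked 16981st, 14750th and 16067th at LL36 and 19072nd, 19118th and 15899th at LL24, the second of these among 19121 genes above 0. The scaled means were 0.0261 ± 0.0122 TPM at LL36 and 0.0129 ± 0.0169 TPM at LL24 (SD, n = 3 each). GER2 was under the limit of the test, and in the limma fit without a limit, over 22084 genes, the difference was 0.02 ± 0.01 (SE) with an adjusted p of 0.408. On this scale a pseudocount of 1 TPM leaves little of a change at such a level. The near-copy AT5G39160 had 0.0236, 0 and 0.000341 TPM at LL36 and 0.0239, 0.000107 and 0.101 TPM at LL24, and AT5G39130, which also shares stretches with GER2, was at 0 in every LL36 library and in LL24 replicate 1, and at 0.0150 and 0.0134 TPM in LL24 replicates 2 and 3. How reads were shared among these genes was not tested. Depth is not held in TPM, so no limit of detection can be given for them.

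The order of the levels was GER1, then GER3, then GER2 in all 6 libraries. Over the 6 libraries GER1 was 3.18-fold above GER3 as a geometric mean, GER3 was 1382-fold above GER2 and GER1 was 4387-fold above GER2. For each of the 3 pairs an exact sign-flip permutation test, two-sided, gave p = 0.031, the smallest that 6 libraries allow, and the adjusted p over the 3 pairs was also 0.031. The folds against GER2 varied from 169 to 73086 for GER3 between single libraries, because GER2 was so close to 0. With a pseudocount of 1 TPM the mean log2 level ratio was 5.12 for GER1 over GER2 on the deposited scale and 7.84 on the full-sum scale, against 12.10 without a pseudocount. For GER3 over GER2 it was 3.56 and 6.19 with the pseudocount, against 10.43 without.

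The ratio of GER3 to GER1 within a library needs no scaling between libraries. GER3 was at 42.1%, 56.3% and 47.7% of the TPM of GER1 at LL36, against 13.9%, 21.6% and 28.7% at LL24. The groups did not overlap. The mean log2 ratio was -1.05 ± 0.21 at LL36 and -2.29 ± 0.52 at LL24 (SD, n = 3 each), a 2.36-fold higher ratio at LL36. An exact permutation test, two-sided, gave p = 0.1, the smallest possible for 3 against 3 libraries, and an adjusted p of 0.3 over the 3 pairs. Against GER1 with AT1G72600 added by length the ratio was 41.7%, 42.8% and 47.1% at LL36 and 13.8%, 13.9% and 13.7% at LL24. The LL24 libraries then differed by less than a percentage point, and the ratio was 3.17-fold higher at LL36, with the same exact p of 0.1. For GER2 over GER1 the exact permutation p was 0.5 and for GER3 over GER2 it was 0.9, and both ratios swung by several log2 units between LL24 libraries (SD of 4.64 and 4.55, n = 3).

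**Figure D5:**
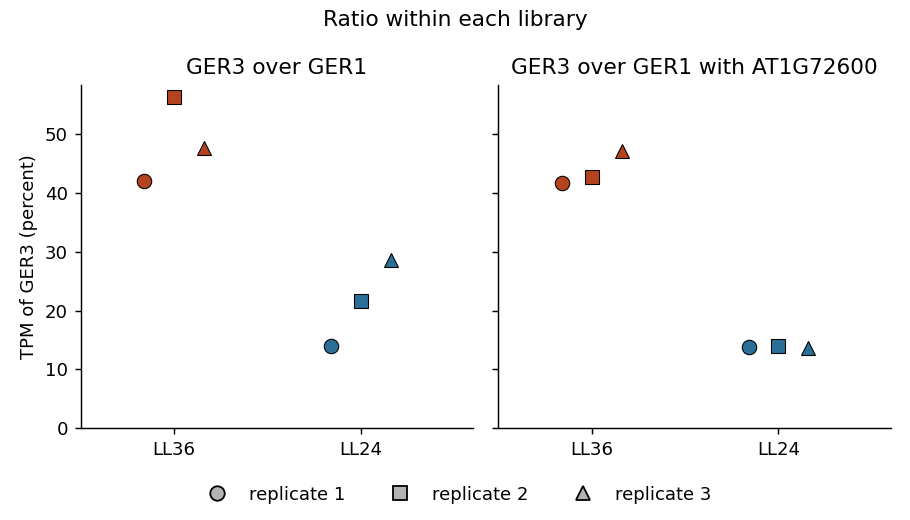
TPM of GER3 as a percentage of the TPM of GER1 (left) and of GER1 with AT1G72600 added by length (right) within each library, LL36 left of LL24. In the right panel the LL36 libraries lie at 41.7% to 47.1% and the LL24 libraries at 13.7% to 13.9%.

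GER1 and GER3 made up most of the signal of the germin-like family. Of the 33 germin-like genes of the list, 30 were not members, and 13 of these were at 0 in every library, 17 were above 0 in some library and 3 in all 6. For 28 of the 30 the mean was under 0.1 TPM. GER1 and GER3 together held 97.3%, 97.4% and 97.6% of the summed family TPM at LL36, against 94.0%, 91.9% and 89.9% at LL24. The share was 5.52 percentage points higher at LL36, and the exact permutation test, two-sided, again gave its smallest p of 0.1. Without the family genes that share more than 5% of their stretches with another transcript, GER1 among them, GER3 held 91.7%, 93.3% and 93.1% of the remaining family TPM at LL36 and 66.2%, 67.2% and 67.6% at LL24, a difference of 25.7 percentage points with the same exact p. GER3 alone held 28.8%, 35.1% and 31.5% at LL36 and 11.5%, 16.3% and 20.03% at LL24, while GER1 held 68.4%, 62.3% and 66.1% at LL36 and 82.5%, 75.6% and 69.8% at LL24. The share of GER1 was thus lower at LL36 although its scaled level was higher.

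The third germin-like gene by level, GLP5 (AT1G09560), had lower values at LL36. GLP5 is also known as PDGLP1, a germin-like protein of plasmodesmata. It had 1.16, 1.04 and 1.22 scaled TPM at LL36, against 1.80, 1.92 and 1.74 scaled TPM at LL24, and no LL36 library reached an LL24 library. With a mean of 1.54 TPM it was under the limit of 5 TPM. Rescaled so that the listed TPM of each library sum to 1000000, the full-sum scale, it had 9.69, 8.08 and 7.81 TPM at LL36 and 15.6, 13.0 and 13.2 TPM at LL24, and the log2 difference was -0.57 ± 0.11 (SE) with an adjusted p of 0.00815 by limma. On that scale the family had 3 tested genes, with GER1 (0.79, adjusted p = 0.0345) and GER3 (2.01, adjusted p = 2.98e-05) called higher and GLP5 called lower, where 16.0% of the 3774 tested genes were called higher and 19.9% lower. With a limit of 1 TPM the family again had 2 genes called higher and 1 called lower of 3 tested, beside 17.3% and 21.3% of 2807 genes. Without a limit GLP5 was not called (-0.32, adjusted p = 0.0812), GER3 was the only family gene of 20 called higher (4.05% of 22084 genes were), and AT3G10080 the only family gene called lower (5.24% of genes were). AT3G10080, named after its values were seen, averaged 0.381 ± 0.0161 scaled TPM at LL36 and 0.631 ± 0.0763 at LL24 (SD, n = 3 each). In the limma fit without a limit, which was scaled over its own genes, the log2 difference was -0.20 with an adjusted p of 0.0485.

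Superoxide dismutase genes, taken as enzymes of an activity known from germins, were described beside the family. Of 7 genes FSD1, an iron superoxide dismutase of the chloroplast, was tested. It averaged 30.5 ± 1.69 scaled TPM at LL36 and 34.0 ± 2.72 at LL24 (SD, n = 3 each), a level between those of GER1 and GER3 at LL36, and the groups overlapped. The log2 difference was -0.15 ± 0.09 (SE), and the adjusted p was 0.199 by limma. Without a limit 0 of the 7 were called by limma and 3 had an unadjusted p under 0.05, namely CSD2 (-0.15), CSD3 (0.16) and FSD2 (0.16), on the log2 scale. Over all genes 5220 of 22084 had an unadjusted p under 0.05 in that fit. There 4.05% of genes were called higher and 5.24% lower, and 7 genes are too few to set 0 calls apart from that share.

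The tested genes whose centred profile over the 6 libraries lay closest to GER3 were AT1G13930, AT5G02160 and GASA4, a member of the gibberellin-regulated GASA family. Their root mean square distances from GER3 were 0.12, 0.13 and 0.14 on the log2 scale, where the median tested gene was at 0.92. AT1G13930 averaged 29.2 ± 2.47 scaled TPM at LL36 and 8.63 ± 0.645 at LL24 (SD, n = 3 each, as for the next genes). AT5G02160 averaged 18.6 ± 1.17 at LL36 and 4.22 ± 0.290 at LL24, and GASA4 averaged 37.5 ± 2.55 at LL36 and 8.22 ± 0.294 at LL24. Closest to GER1 were ESM1, a modifier of glucosinolate breakdown, CP12-2, a small protein that binds Calvin cycle enzymes, and AT2G43550. Their distances were 0.17, 0.19 and 0.21, against a median of 0.50 over the tested genes. ESM1 averaged 11.0 ± 1.22 scaled TPM at LL36 and 7.15 ± 1.41 at LL24. CP12-2 averaged 25.6 ± 3.20 at LL36 and 15.4 ± 2.22 at LL24, and AT2G43550 averaged 9.03 ± 0.788 at LL36 and 4.37 ± 0.821 at LL24. These distances describe likeness over 6 libraries that share their scaling and were not tested.

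GER1 and GER3 shared a high pyrimidine content. Of the GER1 transcript 57.6% were C or U, of GER3 57.5% and of GER2 53.0%, where the median of 27444 coding genes was 49.1%. GER1 and GER3 were both at the 98.7th percentile of coding genes and GER2 at the 88.7th, and among the 751 tested coding genes they were at the 98.3rd, 98.1st and 81.9th. The longest pyrimidine run of each gene is shown because it is the longest part of its RNA with no purine. In GER1 the run was tctttttttctcttt, with a length of 15 nt, and lay after the coding sequence. In GER2 it was ttttttcttctc, with a length of 12 nt, and lay within the coding sequence. In GER3 it was cctctctttct, with a length of 11 nt, and lay before the coding sequence. Runs as long were common, since 38.5%, 65.3% and 75.6% of coding genes had a run at least as long as that of GER1, GER2 and GER3. GER1 and GER3 thus stood near the top in pyrimidine content and not in run length.

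The 300 bases before the annotated start of GER3 are shown because GER3 had the clearest difference between dawn and dusk. They lie at chr5:6976037-6976336 on the minus strand, and the capitals mark the only match to 3 clock or light motifs searched on both strands.
GER3 promoter: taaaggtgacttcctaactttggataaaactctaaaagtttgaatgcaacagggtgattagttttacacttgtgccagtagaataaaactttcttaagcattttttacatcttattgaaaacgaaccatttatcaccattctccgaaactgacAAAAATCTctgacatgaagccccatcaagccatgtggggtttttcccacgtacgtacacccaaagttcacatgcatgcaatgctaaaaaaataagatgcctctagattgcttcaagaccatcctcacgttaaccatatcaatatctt
The match is AAAAATCT, known as the CCA1-binding site, 147 nt before the start. It was found in 7.94% of 27443 promoters of this length and in 7.2% of 750 promoters of tested genes. The evening element AAAATATCT, held by 2.79% of promoters, and the G-box CACGTG, held by 7.09%, had no match in the windows of GER1, GER2 or GER3, and GER1 and GER2 had no match to AAAAATCT either. None of the 3 motifs contains another, and a match describes the letters only.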

How the data were processed

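Reads of 6 AtGRP7-GFP RIP-seq libraries (3 LL36, 3 LL24) were processed by the authors, who trimmed them with Sickle, aligned them with STAR 2.5.2a to AtRTD transcripts on TAIR10, estimated abundances with Salmon 0.8.2, summed them per gene with tximport and left out rRNA and organelle genes. Deposited values were TPM, a unit that holds no depth, so precision was taken from the 3 libraries of a group. A further 6 columns, named for Col-2, matched no sample and were not used. No library pair was identical.

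The members and lists were chosen with earlier results of these data known. Groups came from the sample titles. Genes with a mean of 5 TPM or more were tested with limma 3.58.1 in R 4.3.3 (trend on, log2 of scaled TPM plus a pseudocount of 1, Benjamini-Hochberg at 0.05), after trimming 30% of ratios and 5% of abundances for the scaling. A member under the limit was given from the fit without a limit, which was scaled over its own genes. Ratios and shares were compared with exact permutation tests in scipy 1.17.1. The fit was tested on simulated data. Named genes were the members, family genes with a mean of 1 TPM or more or with 100-nt stretches shared with a member, called superoxide dismutases, the 3 closest genes per tested member, and AtGRP7. Superoxide dismutases named beside these and AT3G10080 were named after their values were seen. Sequences and positions came from RefSeq TAIR10.1, matched by gene ID (32811 of 33331 IDs), since AT1G73250 and AT1G17890 also carry the symbols GER1 and GER2 there.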

Additional observations from a re-analysis of the deposited data

How the results depend on the processing

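GER3 was called higher at LL36 in every alternative run. The GER1 call was lost with TPM as deposited (0.43), without a limit (0.85) and with AT1G72600 added and TPM as deposited (0.022 by length, 0.18 as TPM), and without single libraries the difference was 0.47 to 0.96. The family then had 1 called gene of 2 tested with TPM as deposited, and 1 to 2 of 2 tested without single libraries. GER2 and the superoxide dismutases were called in no alternative. Of these dismutases 1 was tested as reported, 3 with a limit of 1 TPM or on the full-sum scale and 7 without a limit. All called genes numbered 126 of 789 tested with TPM as deposited, 1356 of 3774 on the full-sum scale and 1083 of 2807 with a limit of 1 TPM. They numbered 2051 of 22084 without a limit, and 260 to 307 without single libraries, where 751 to 834 genes were tested. Fits with another limit, on the full-sum scale or without a library tested other numbers of genes and were scaled again over those genes. With TPM as deposited 25 were higher and 101 lower, against 157 and 190 as reported, and the median difference of tested genes moved to -0.26. Rescaled after dropping the 10 most abundant genes, 230 were higher and 154 lower.

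With a pseudocount of 1 the GER2 over GER1 ratio turned to -0.42 (deposited) and -0.59 (full-sum), and GER3 over GER2 to 1.53 and 1.80. Without single libraries GER3 over GER2 ranged from -3.11 to 1.27, positive only without LL24 replicate 2. The order of levels was the same without single libraries (log2 -1.83 to -1.43 for GER3 over GER1, 10.85 to 12.68 for GER1 over GER2, 9.29 to 11.04 for GER3 over GER2), where 5 libraries allow no exact permutation p under 0.0625.

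The replicate numbers were not taken as pairs, and a fit with them as a block was planned as an alternative. Same-numbered libraries deviated with correlations of 0.15, -0.08 and -0.21, which with 3 libraries per group does not settle whether they were paired. With the replicate number as a block, GER1 was at 0.73 (adjusted p = 0.041), GER3 at 1.81 (adjusted p = 8.31e-05), and 298 genes were called by limma. Depth could not be examined from TPM.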
